A study of Homo sapiens with 6 samples.

Results

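The genes described here are ATF4 and 9 genes of the integrated stress response that work with it or depend on it: ATF3, ATF5, DDIT3, DDIT4, TRIB3, ASNS, CHAC1, SESN2 and CEBPG. They were taken by name from a table of 58735 genes, each name matched 1 row, and all 10 passed the filter on low counts that left 15496 genes for testing. The cells are labelled as SW1990, a long-established line from a ductal carcinoma of the human pancreas. Polyadenylated RNA was sequenced in 3 libraries of cells given 5 µM EPZ-5676, an inhibitor of the histone H3 methyltransferase DOT1L, and in 3 control libraries. The sample characteristics call the controls untreated, while the treatment protocol gives them the same volume of the solvent DMSO, and the labels do not state how long the treatment lasted. All samples are of a single cell line, and no label describes the replicates as separate cultures, so the p-values reflect the spread among these 6 libraries, part or all of which may be technical.

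The integrated stress response joins several alarms in a common step. Kinases that sense misfolded protein, amino acid shortage, viral RNA or haem shortage phosphorylate the translation factor eIF2, which slows most protein synthesis while raising translation of the ATF4 mRNA. The ATF4 protein, a basic leucine zipper factor, pairs with C/EBP proteins and switches on genes for amino acid supply, redox balance and, under lasting stress, cell death. Because this control lies largely in translation, an mRNA level is not a measure of ATF4 protein or of its activity, neither of which was measured.

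The libraries held 33970420 to 39749648 reads assigned to genes. Labelled as ductal adenocarcinoma, they had high levels of the keratins KRT7, KRT8 and KRT18, but of the 8 ductal markers CDH1 and CEACAM6 had no read in any of the 6 libraries (a count of 0 is not proof of absence), and KRT19 and EPCAM were at most at 0.744 and 2.59 CPM (read counts relative to library size, with sizes scaled by the trimmed mean method TMM). MUC1, the remaining ductal marker, was detected in every library, at 29.3 to 40.8 CPM with EPZ-5676 and 22.7 to 39.7 CPM in the controls. The missing and low epithelial markers go against the label in part, so the identity of the cells is in doubt and was not tested further. Summed over that list the level was 6549 to 8341 CPM with EPZ-5676 and 5365 to 6168 CPM in the controls. Of the fibroblast list, COL1A1, DCN, LUM and PDGFRB were detected, with sums of 93.3 to 99.6 CPM with EPZ-5676 and 83.6 to 93.4 CPM in the controls. Acinar and endocrine markers summed to 0.837 CPM or less in every library, with 5 of 7 at 0. Endothelial markers, with KDR at 0, summed to 1.37 to 3.25 CPM with EPZ-5676 and 1.63 to 3.18 CPM in the controls, and leukocyte markers to 3.85 to 5.76 and 2.09 to 8.82 CPM. Control replicate 2 stood apart in its leukocyte transcripts. PTPRC had 153 reads there, against 0, 8 and 0 in the EPZ-5676 libraries and 0 in both other controls, and EPZ-5676 replicate 1 stood apart on the second principal component (17.8, against -18.9 and -14.1 for the other EPZ-5676 libraries and 3.42 to 6.12 for the controls). The part of either library in the results was not tested beyond the values without it given below.

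Many ATF4 targets carry a composite C/EBP-ATF element, and the letters TGATGNAA (TTNCATCA on the other strand) are a short form of its core. In RefSeq windows from 250 bases before to 50 after a gene's start (GRCh38.p14), all 10 genes had at least 1 window and 4 of them held the letters on either strand, ATF3, ASNS, CHAC1 and CEBPG. Of all gene symbols with a window, 4.46% held them. By window, 4 of the 19 windows of the 10 genes held them, against 3.62% of all 35116 windows. The matches are shown so that the letters behind the count can be read. Each line gives 30 bases on the gene's own strand, 5′ to 3′, with the match in capitals.
ATF3 (chr1:212565205-212565234, plus strand, match starting at -191 from the start): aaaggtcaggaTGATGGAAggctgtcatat
ASNS (chr7:97872458-97872487, minus strand, match at -68): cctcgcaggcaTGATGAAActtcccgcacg
CHAC1 (chr15:40953251-40953280, plus strand, match at -209, on the other strand): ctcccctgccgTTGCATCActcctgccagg
CEBPG (chr19:33374060-33374089, plus strand, match at -42 from the later of its starts): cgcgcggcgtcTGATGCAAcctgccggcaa
The stretches of ASNS and CHAC1 lie within exons of other annotated transcripts of the same genes, and those of ATF3 and CEBPG lie outside annotated exons of their genes. Of these 4 genes only CEBPG was past the threshold below, and it was lower. A match is a description of the letters, not a measured binding site.

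With EPZ-5676 the mRNA of ATF4 itself and of its partner CEBPG fell, that of the leucine sensor SESN2 and of the related factor ATF5 rose, and the other 6 genes did not pass the test. Thus 2 of 10 genes were higher and 2 lower (edgeR's quasi-likelihood test, Benjamini-Hochberg adjusted p under 0.05 over all 15496 genes), where 15.0% of all genes were higher and 18.7% lower, 33.7% in either direction. The counts of called members lie close to that background. All 3 EPZ-5676 libraries lay above all 3 controls for 4 genes and below them for 2, against 21.8% and 24.2% of all genes, 46.0% in either direction. After removal of a trend with GC content and transcript length, described below, the fall of ATF4 remained past the threshold and was larger, and the other 3 calls were lost. The 10 genes did not move together in either fit: their median log2 fold change was 0.17, and 0.03 after that correction, beside -0.05 and -0.0044 for all tested genes.

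**Figure D1:**
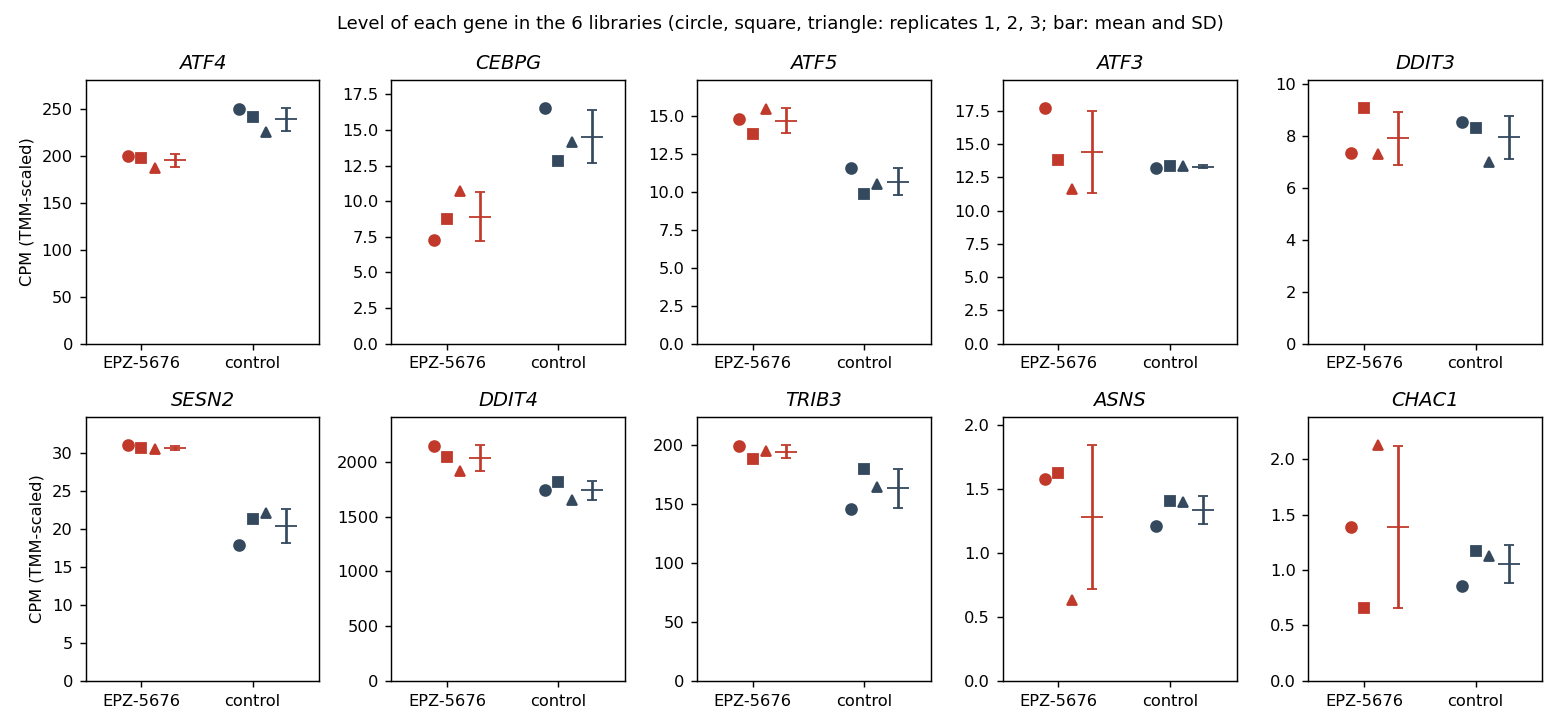
Level of each of the 10 genes in CPM, on linear axes that start at 0, in the 3 EPZ-5676 libraries (red, left) and the 3 control libraries (blue-grey, right); symbols are replicates and the bars the mean and SD. ATF4 and CEBPG lie below the controls in all 3 EPZ-5676 libraries, ATF5, SESN2, DDIT4 and TRIB3 lie above them, and the other 4 genes overlap.

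The transcription factors are given before the genes they act on. ATF4 (ENSG00000128272, chromosome 22, 39519695 to 39522685, GRCh38) had 201, 198 and 188 CPM in the EPZ-5676 libraries, against 250, 241 and 226 CPM in the controls. The groups do not overlap. The gap between them, from 201 to 226 CPM, was about as wide as the spread of the controls, 226 to 250 CPM. The mean was 195 ± 6.79 CPM with EPZ-5676 and 239 ± 12.3 CPM in the controls (SD, n = 3 each), so that ATF4 fell by 18.3%, a log2 fold change of -0.29 ± 0.10 (SE; edgeR adjusted p = 0.0235). The call was lost without EPZ-5676 replicate 2 (adjusted p = 0.0616), without EPZ-5676 replicate 3 (0.110), without control replicate 1 (0.0737) and with another scaling, relative log expression (RLE; 0.0654). It held without control replicate 2 (0.0457) and without EPZ-5676 replicate 1 (0.0385), the 2 libraries that stand apart.

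CEBPG (ENSG00000153879, chromosome 19, 33373330 to 33382686) encodes C/EBP gamma, a zipper protein with little activating power of its own that pairs with ATF4. Its level was 7.27, 8.75 and 10.7 CPM in the EPZ-5676 libraries, against 16.5, 12.9 and 14.2 CPM in the controls. Every treated library was below every control. The fall was 38.6%, a log2 fold change of -0.70 ± 0.18 (edgeR adjusted p = 0.00621), and it was past the threshold without each of the 6 libraries in turn.

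ATF5 (ENSG00000169136, chromosome 19, 49928702 to 49933935) is a close relative of ATF4 whose mRNA is likewise translated under eIF2 phosphorylation. It had 14.8, 13.9 and 15.5 CPM with EPZ-5676, against 11.6, 9.87 and 10.6 CPM in the controls, with no overlap. The rise was 37.7%, a log2 fold change of 0.46 ± 0.16 (edgeR adjusted p = 0.0331). The call held without control replicate 1 (adjusted p = 0.0359), but it was lost without any of the 3 EPZ-5676 replicates (adjusted p = 0.0804, 0.0552 and 0.115 for replicates 1, 2 and 3) and without control replicate 2 (0.0677) or 3 (0.0918). A stretch of 626 of its 2954 exonic bases is shared with NUP62 on the opposite strand, which had 2124 to 2503 reads with EPZ-5676 and 1948 to 2419 in the controls, against 460 to 613 and 345 to 462 for ATF5. No source used here gives the strand setting of the counting, so reads of the 2 genes may not be fully apart.

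ATF3 and DDIT3, factors that are induced by stress, did not pass the test. ATF3 (chromosome 1, 212565334 to 212620777) had 17.7, 13.8 and 11.6 CPM in the EPZ-5676 libraries, against 13.2, 13.4 and 13.3 CPM in the controls, so that the controls lay within the range of the treated libraries (log2 fold change 0.11 ± 0.17, edgeR adjusted p = 0.660). DDIT3 (chromosome 12, 57516588 to 57521737) encodes CHOP, the factor most often used as a sign of a stress response that leads to death. It had 7.34, 9.09 and 7.33 CPM with EPZ-5676 and 8.55, 8.33 and 6.99 CPM in the controls, a log2 fold change of -0.0067 ± 0.19 (edgeR adjusted p = 0.983). The groups overlap, and the SE leaves room for a modest difference in either direction. DDIT3 shares 355 of its 1307 exonic bases with MARS on the opposite strand. MARS had 3747 to 4089 reads with EPZ-5676 and 4572 to 5909 in the controls, against 228 to 319 and 261 to 340 for DDIT3, so the count of DDIT3 is uncertain.

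Among the genes that ATF4 acts on, SESN2 (ENSG00000130766, chromosome 1, 28259527 to 28282491) had the larger of the 2 rises. Its product, sestrin 2, binds leucine and restrains the growth kinase complex mTORC1 when leucine is short. It had 31.0, 30.6 and 30.5 CPM in the EPZ-5676 libraries, against 17.8, 21.3 and 22.0 CPM in the controls. The treated libraries were nearly equal and all above the controls. The rise was 50.6%, a log2 fold change of 0.59 ± 0.14 (edgeR adjusted p = 0.00286), and the call held without each library in turn.

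DDIT4 and TRIB3 were higher in every treated library than in any control but missed the threshold. DDIT4 (chromosome 10, 72273920 to 72276036), also called REDD1, restrains mTORC1 through the TSC complex. Its level was 2145, 2045 and 1913 CPM with EPZ-5676, against 1744, 1821 and 1654 CPM in the controls (log2 fold change 0.23 ± 0.10, edgeR adjusted p = 0.0885; 0.0212 by DESeq2). An antisense gene, DDIT4-AS1, covers 847 of its 2058 exonic bases and had no read. TRIB3 (chromosome 20, 362835 to 397559) encodes a pseudokinase that binds ATF4 and dampens its activity. It had 199, 188 and 195 CPM with EPZ-5676 and 146, 179 and 164 CPM in the controls (log2 fold change 0.25 ± 0.10, edgeR adjusted p = 0.0606). TRIB3 passed without control replicate 2, the library with leukocyte transcripts (0.34 ± 0.11, adjusted p = 0.0135), with RLE scaling (0.0405) and by DESeq2 (0.0242).

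CHAC1 and ASNS were near the lower end of detection, and neither passed. CHAC1 (chromosome 15, 40952962 to 40956519), an enzyme that degrades glutathione, had 43, 23 and 84 reads in the EPZ-5676 libraries, against 34, 41 and 42 reads in the controls. The treated libraries lie on both sides of the controls, and EPZ-5676 replicates 2 and 3 differ beyond counting error (exact Poisson 95% intervals of 14.6 to 34.5 and 67.0 to 104 reads). Its log2 fold change of 0.41 ± 0.45 (edgeR adjusted p = 0.518) became -0.05 without EPZ-5676 replicate 3. ASNS (chromosome 7, 97852118 to 97872542), asparagine synthetase, is a classical ATF4 target, yet it had only 49, 57 and 25 reads with EPZ-5676 and 48, 49 and 52 reads in the controls (log2 fold change -0.07 ± 0.42, edgeR adjusted p = 0.918). The annotation places a second gene, AC079781.5, on the same strand over 1683 of the 1752 coding bases of ASNS, and that gene had at most 1 read in any library. No source used here says how reads that fall on both genes were counted, so the level of ASNS is uncertain.

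Set side by side per kilobase of the longest transcript, DDIT4 was the most abundant of the 10 in both groups, with 1164 ± 66.7 CPM per kilobase with EPZ-5676 and 995 ± 47.8 in the controls, rank 58 and 66 among all tested genes. ATF4 followed with 96.8 ± 3.36 and 119 ± 6.08 CPM per kilobase, and TRIB3 with 77.7 ± 2.22 and 65.3 ± 6.76 (EPZ-5676 and controls, SD, n = 3 each). A group of 4 genes lay far lower. With EPZ-5676 these were SESN2 at 8.88, DDIT3 at 7.42, ATF5 at 7.11 and ATF3 at 6.84 CPM per kilobase, of which the last 3 overlap in their libraries. In the controls they were DDIT3 at 7.46, ATF3 at 6.33, SESN2 at 5.90 and ATF5 at 5.16 CPM per kilobase, where ATF3 overlaps SESN2 and SESN2 overlaps ATF5. CEBPG stood at 2.17 with EPZ-5676 and 3.53 in the controls, and CHAC1 and ASNS, below 1 in both groups, overlap each other. These orders depend on the transcript length taken for each gene.

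The fold changes of the series follow the GC content of the transcripts, and the 10 genes lie at different places on that trend. The median log2 fold change ran from -0.58 in the decile of tested genes with the lowest GC content to 0.43 in the decile with the highest. ATF4 (56.7% GC) lies in the eighth decile, where the median was 0.26 and 418 of 1548 genes were higher, against 20 lower, so the fall of ATF4 goes against most genes of similar composition. SESN2 (59.5%) and ATF5 (60.0%) lie in the decile above, where the median was 0.35 and 41.3% of genes were higher. CEBPG (43.9%) lies in a decile with a median of -0.30, where 26.5% of genes were lower.

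**Figure D2:**
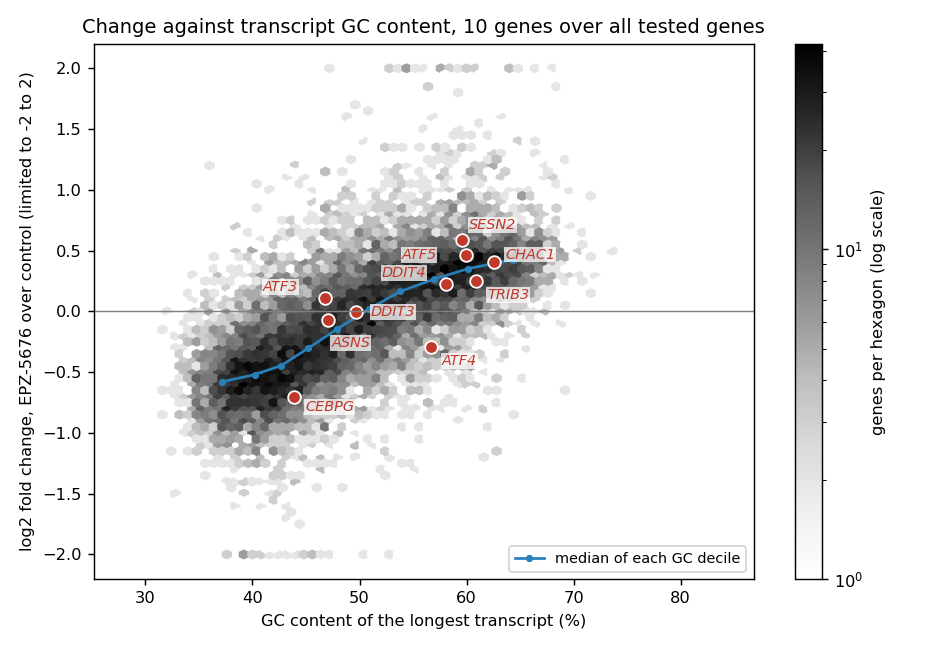
Log2 fold change of EPZ-5676 over control against the GC content of the longest transcript, with all tested genes as grey hexagons (extreme values drawn at the axis limits), the median of each GC decile as a blue line, and the 10 genes in red. ATF4 lies well below the line at its GC content, whereas DDIT4, TRIB3 and CHAC1 lie near it.

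Removal of a smooth trend with GC content and transcript length from each library, which also removes any effect of the treatment that follows these properties, left ATF4 alone of the 10 genes past the threshold, where 5.41% of all genes were higher and 5.57% lower, 11.0% in either direction. Corrected levels did not overlap between the groups for 4 of the 10 genes, against 28.5% of all genes. All 3 EPZ-5676 libraries lay below the controls for ATF4, CEBPG and TRIB3, the last of which lay above them before the correction, and above them for SESN2. The corrected log2 fold change of ATF4 was -0.54 ± 0.08 (edgeR adjusted p = 9.8e-05). It was past the threshold in all 9 settings that removed a GC trend, each library left out included, at -0.58 to -0.46 (highest adjusted p = 0.00273). SESN2 had 0.26 ± 0.11 after the correction (adjusted p = 0.131), CEBPG -0.36 ± 0.15 (0.137) and ATF5 0.11 ± 0.15 (0.708), each smaller than before it. TRIB3 and DDIT4 changed sign, to -0.11 ± 0.07 (0.354) and -0.06 ± 0.08 (0.672). ATF3 had 0.30 ± 0.15 (0.245), DDIT3 0.05 ± 0.17 (0.899), ASNS 0.10 ± 0.42 (0.916) and CHAC1 0.0094 ± 0.44 (0.993). Whether the trend comes from the libraries or from the treatment cannot be told apart in these data.

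**Figure D3:**
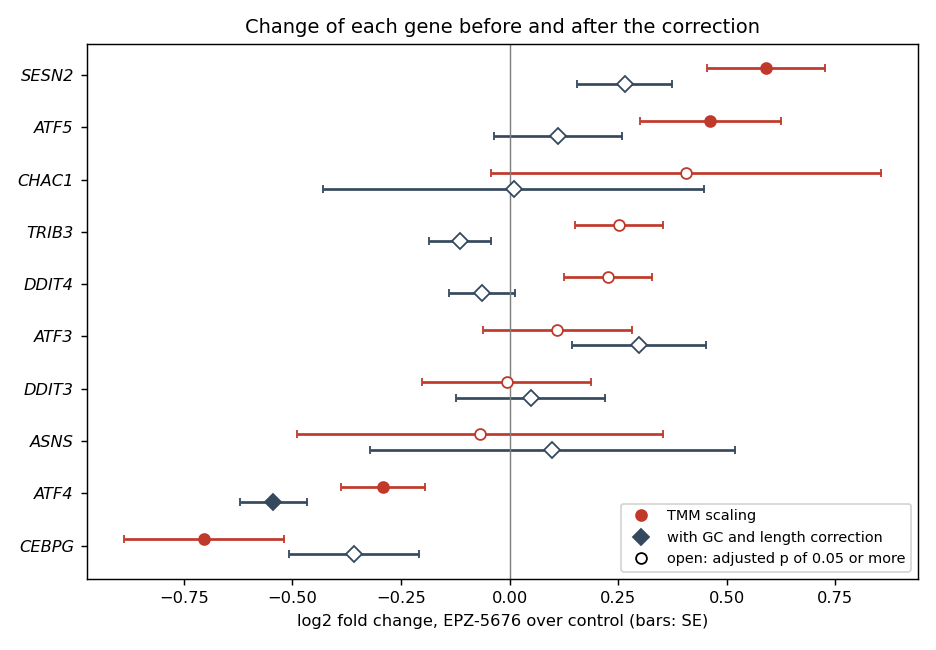
Log2 fold change of EPZ-5676 over control with its SE for each of the 10 genes, from TMM-scaled counts (red circles) and after the GC and length correction (blue-grey diamonds); filled symbols have an edgeR adjusted p under 0.05. ATF4 is filled in both fits, at -0.29 and -0.54, while SESN2, ATF5 and CEBPG are filled only before the correction.

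The counts in the lists that follow stand beside 15.0% of all tested genes higher and 18.7% lower before the correction (median -0.05), and 5.41% and 5.57% after it (median -0.0044). Upstream of ATF4, a list of 22 genes covered eIF2, its kinases, its exchange factor eIF2B and its phosphatases. It also held GCN1, IMPACT, OMA1, DELE1 and EIF2A. Of the 22 genes, 10 were lower and 4 higher, with a median log2 fold change of -0.31 (3 lower and 3 higher after the correction, median -0.05). The eIF2 beta subunit EIF2S2 had 46.9 ± 3.29 CPM with EPZ-5676 and 80.7 ± 15.2 CPM in the controls (log2 fold change -0.78 ± 0.12, edgeR adjusted p = 0.000212). The phosphatase catalytic subunits PPP1CC (-0.77 ± 0.11) and PPP1CB (-0.81 ± 0.13) and the initiation factor EIF2A (-0.93 ± 0.15) fell as well. All but PPP1CB were also lower after the correction. Another catalytic subunit, PPP1CA, rose, with 337 ± 38.4 CPM with EPZ-5676 and 252 ± 16.6 CPM in the controls (0.42 ± 0.10, edgeR adjusted p = 0.00481). Also called higher were PPP1R15A (0.41 ± 0.10), EIF2B4 (0.38 ± 0.11) and EIF2B5 (0.47 ± 0.11). After the correction EIF2B4 and EIF2B5 kept the call, and PPP1CA and PPP1R15A lost it. GCN1, which activates the amino acid sensing kinase, had 366 ± 29.3 and 305 ± 26.1 CPM, and the haem sensing kinase gene EIF2AK1 111 ± 2.80 and 117 ± 8.38 CPM (EPZ-5676 and controls), and neither passed. Of the other eIF2 kinase genes, EIF2AK2 (-0.58 ± 0.15, edgeR adjusted p = 0.00582) and EIF2AK4 (-0.40 ± 0.14, 0.0347) were called lower. EIF2AK3 (-0.47 ± 0.24, 0.134) did not pass. The remaining genes called lower were EIF2S1 (-0.61 ± 0.11), EIF2S3 (-0.60 ± 0.11), PPP1R15B (-0.62 ± 0.14) and IMPACT (-0.57 ± 0.17). Neither these genes nor the kinase genes were called after the correction. The corrected count of higher genes was 1 without control replicate 3 or without EPZ-5676 replicate 1 or 2.

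Downstream, of 13 genes for aminoacyl-tRNA synthetases, which charge transfer RNAs, and for tRNA export, all named as ATF4 targets, 10 were lower and 0 higher, with a median log2 fold change of -0.62, and 8 were lower and 0 higher after the correction, with a median of -0.34. The glutamyl-prolyl enzyme EPRS had 41.7 ± 5.10 CPM with EPZ-5676 and 78.6 ± 15.4 CPM in the controls (-0.91 ± 0.13, edgeR adjusted p = 0.000106), and the glycyl enzyme GARS 95.9 ± 4.00 and 151 ± 16.0 CPM (-0.66 ± 0.10; -0.57 after the correction). The asparaginyl NARS (-0.83 ± 0.14) and threonyl TARS (-0.76 ± 0.14) enzymes fell too. The alanyl AARS (0.06), seryl SARS (-0.12 ± 0.10) and tyrosyl YARS (-0.02 ± 0.10) enzymes did not pass, although YARS was called lower after the correction (-0.24, adjusted p = 0.0330).

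Of 12 genes for amino acid synthesis and folate metabolism, 3 were lower and 1 higher (median -0.13), counts near the shares of all genes. After the correction 4 of the 12 were lower and 0 higher (median -0.20), where 5.57% of all genes were lower. The serine synthesis enzyme PSAT1 had 58.1 ± 1.47 CPM with EPZ-5676, against 106 ± 6.89 CPM in the controls (-0.87 ± 0.10, edgeR adjusted p = 1.6e-05; -0.46 after the correction). The mitochondrial folate enzymes MTHFD2 (-0.89 ± 0.12) and ALDH1L2 (-0.86 ± 0.18) fell and the alanine aminotransferase GPT2 (0.41 ± 0.11) rose, of which MTHFD2 alone kept its call after the correction. SHMT2 (0.10 ± 0.10) and PHGDH (0.21 ± 0.11) did not pass. GPT2 was not called without EPZ-5676 replicate 1, and 2 corrected calls were left without EPZ-5676 replicate 2 or 3. Of 10 tested amino acid transporters, 2 were lower, about the share of all genes, and 0 higher (median 0.05). The 2 were the neutral amino acid carrier SLC38A2 (-0.58 ± 0.12) and the cystine carrier SLC7A11 (-0.52 ± 0.19). Leaving out any 1 library left 1 call. After the correction neither was called and 4 others of the 10 were lower (median -0.08), where 5.57% of all genes were lower. Among the 4 were SLC7A5 (-0.27) and SLC1A5 (-0.31), and 0 to 2 calls were left when a library was left out.

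**Figure D4:**
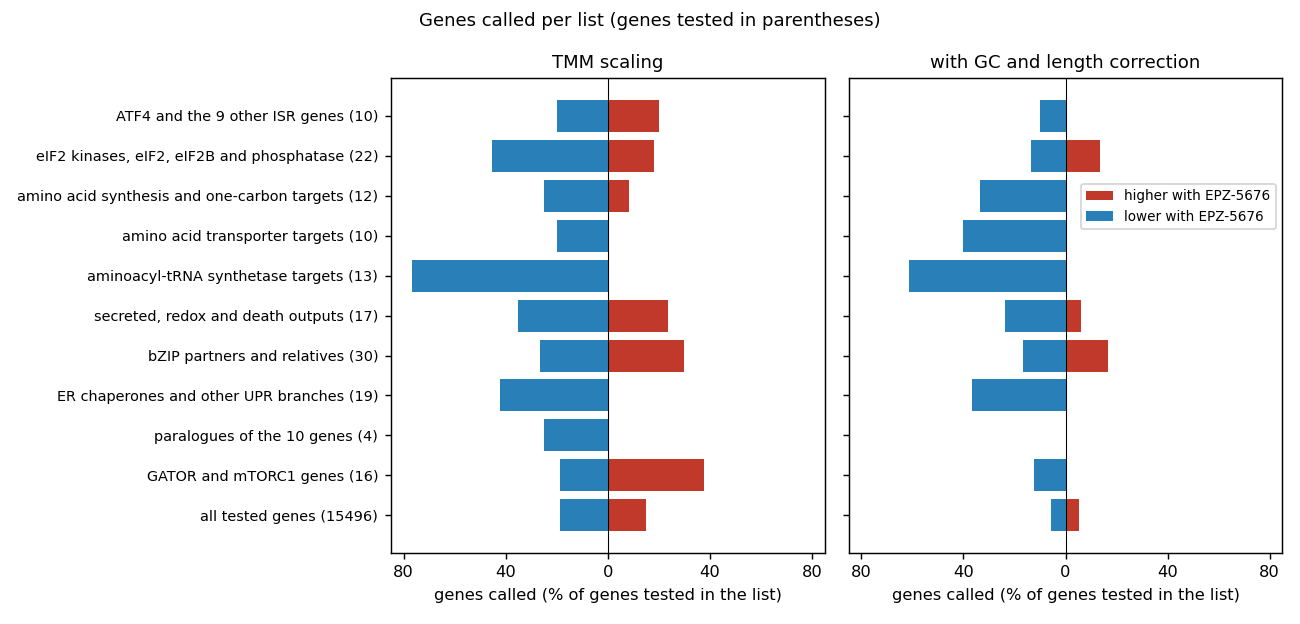
Share of the tested genes of each list called higher (red) or lower (blue) with EPZ-5676, with TMM scaling on the left and after the GC and length correction on the right; the bottom bars are all 15496 tested genes. The aminoacyl-tRNA synthetase list has 10 of 13 genes lower before and 8 of 13 after the correction, with none higher.

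Among secreted, redox and death genes known as outputs of ATF4 and CHOP, 4 of 17 were higher and 6 lower (median -0.26; 1 and 4 after the correction, median -0.07). The endoplasmic reticulum oxidase ERO1A had 95.5 ± 9.45 CPM with EPZ-5676 and 173 ± 29.9 CPM in the controls (-0.86 ± 0.12, edgeR adjusted p = 6.9e-05; -0.32 after the correction, adjusted p = 0.0114). The autophagy gene ATG12 (-0.79 ± 0.15) fell, and the death gene BBC3 (0.68 ± 0.14) and the autophagy kinase ULK1 (0.55 ± 0.12) rose, none of them past the threshold after the correction. The death genes did not move together. PMAIP1 was called lower (-0.69 ± 0.17, edgeR adjusted p = 0.00510), and BCL2L11 (-0.31 ± 0.16, 0.148) and TNFRSF10B (-0.26 ± 0.10, 0.0530) did not pass. PMAIP1, BCL2L11 and TNFRSF10B were not called after the correction. STC2 (0.13 ± 0.10) and TXNIP (0.21 ± 0.10) did not pass, and TXNIP was called higher after the correction (0.56, adjusted p = 5.5e-05). Of 19 genes of endoplasmic reticulum folding and the other stress branches, 8 were lower and 0 higher (median -0.33; 7 and 0 after the correction, median -0.20, and 4 without EPZ-5676 replicate 2). Without control replicate 2 or EPZ-5676 replicate 2, 1 was higher before the correction. The chaperone HSP90B1 (-1.02 ± 0.12), the lectin chaperone CANX (-0.83 ± 0.11), the disulfide isomerase PDIA6 (-0.56 ± 0.10) and the sensor-binding chaperone HSPA5 (-0.54 ± 0.10) fell in both fits. CALR (-0.05 ± 0.10) and PDIA4 (-0.23 ± 0.10) did not pass before the correction. After it PDIA4 was called lower (-0.35, edgeR adjusted p = 0.00303) and CALR was not (-0.20, 0.0906).

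Of 30 tested basic leucine zipper relatives that can pair with or stand beside ATF4, 9 were higher and 8 lower (median 0.12; 5 and 5 after the correction, median -0.02). The factor CREB3 had 182 ± 19.6 CPM with EPZ-5676 and 118 ± 7.35 CPM in the controls (0.62 ± 0.10, edgeR adjusted p = 0.000313; 0.37 after the correction). CEBPA (1.15 ± 0.24, and 0.69 after the correction) and JUND (0.67 ± 0.12) rose and the stress sensor ATF6 (-0.61 ± 0.13) fell, the last 2 not past the threshold after it. CEBPB, a C/EBP partner of ATF4, had 374 ± 17.0 and 323 ± 20.8 CPM (EPZ-5676 and controls; 0.21 ± 0.10, adjusted p = 0.103), but was called lower after the correction (-0.25, 0.0239). The corrected counts fell to 1 to 3 in each direction without EPZ-5676 replicate 1, 2 or 3, and to 3 higher and 3 lower without control replicate 1, and 3 lower without control replicate 3.

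Across the 6 libraries, log2 CPM followed that of ATF4 most closely, among protein-coding genes averaging 1 or more on that scale, for GNG11, TCEAL4, ANXA5, NDUFS4 and ZNF627, with Pearson r of 0.997 to 0.993 among 10693 genes ranked. Such values are a description of 6 libraries that share groups, depth and the GC trend, and after the correction r was 0.31 for GNG11 and 0.12 for ANXA5 but 0.96 for TCEAL4. ASNS and CHAC1 were too low to be ranked. Of the other 7 integrated stress response genes, CEBPG came nearest (r = 0.79, rank 2111) and SESN2 was the farthest, at -0.97. After the correction r was 0.83 for CEBPG and -0.93 for SESN2. It changed sign for DDIT4 (from -0.70 to 0.69) and TRIB3 (from -0.84 to 0.74). The sign stayed for ATF5 (from -0.88 to -0.19), ATF3 (from -0.07 to -0.61) and DDIT3 (from 0.26 to 0.0059).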

How the data were processed

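Per the labels' protocols, RNA was extracted with TRIzol, enriched on oligo(dT) beads and made into libraries with dUTP in the second strand. The submitters' processing notes name HISAT2 2.2.1 and GRCh38; no source used here gives the counting tool or its strand setting. The deposited table gives raw read counts for each gene, with no normalization by the authors, and each gene's length in bases. Its 58735 genes have the coordinates of GENCODE release 29, which gave transcript GC content and length (longest transcript) and overlapping exons.

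Counts were fitted with edgeR 4.0.16 in R 4.3.3 (filterByExpr by group, minimum count 10, TMM, robust quasi-likelihood, two-sided, adjusted p under 0.05 over all tested genes). The SE is the log2 fold change over the square root of F. The correction fits, per library, natural splines with 5 degrees of freedom for GC content and log length to deviations of log2 CPM (prior count 2) and enters them as offsets; 9 tested genes without a sequence took median values. Alternatives were RLE scaling, no filter, DESeq2 1.42.0, limma-voom (3.58.1), a replicate block, corrections for GC, length or both, and each library left out. Figures used matplotlib 3.10.9.

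The members, lists and corrections were chosen with earlier results of these data known. All 10 members are named; from each list, the 4 called genes with the smallest p and the 2 most expressed genes not called. Other genes (AARS, PPP1CA, PPP1R15A, EIF2B4, EIF2B5, IMPACT, OMA1, DELE1, overlapping genes, markers) were named after their values were seen. So were EIF2AK2, EIF2AK3, EIF2AK4, EIF2S1, EIF2S3, PPP1R15B, PMAIP1, BCL2L11, TNFRSF10B and TRIB2.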

Additional observations from a re-analysis of the deposited data

How the results depend on the processing

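The numbers of genes higher and lower, 2326 and 2899, were 761 and 730 with the GC correction, 838 and 863 with the GC and length correction, and 688 and 685 with that correction and a replicate block. With each library left out they were 1350 to 2780 and 1753 to 3167, the lowest without EPZ-5676 replicate 1 (higher) and control replicate 1 (lower). With both a library left out and the correction they were 398 and 513 (EPZ-5676 replicate 1), 612 and 560 (EPZ-5676 replicate 2), 602 and 545 (EPZ-5676 replicate 3), 592 and 568 (control replicate 1), 848 and 816 (control replicate 2) and 522 and 706 (control replicate 3). Of the 10 genes, 2 higher and 2 lower, DESeq2 called 4 higher, no filter 1 higher, RLE scaling 1 lower, and a replicate block 1 higher and 1 lower. Every setting with a GC correction called 0 higher and 1 lower, and leaving out a library without it 1 to 2 in either direction.

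Deviations of same-numbered libraries correlated at -0.11, -0.093 and 0.047 for replicates 1, 2 and 3, and EPZ-5676 replicate 1 was most like control replicate 2 (0.15), so the numbers were not taken to pair samples. With the replicate block ATF4 (edgeR adjusted p = 0.0691) and ATF5 (0.0747) missed the threshold.

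Some log2 fold changes changed sign, none past the threshold. With the GC correction, with both corrections, and with both and the replicate block, DDIT4 had -0.0637, -0.0637 and -0.0628, TRIB3 -0.10, -0.11 and -0.11, DDIT3 0.0323, 0.0481 and 0.0466, and ASNS 0.11, 0.0985 and 0.0122, and CHAC1 had -0.11 with the last. DDIT3 had 0.0325 with RLE scaling and 0.0326 with DESeq2. Leaving out each library gave -0.0652 to 0.24 for ATF3, -0.12 to 0.0582 for DDIT3, -0.28 to 0.26 for ASNS and -0.0483 to 0.74 for CHAC1. With the correction as well, leaving out EPZ-5676 replicates 1, 2 and 3 and then control replicates 1, 2 and 3 gave -0.0559, -0.0875, -0.0312, -0.0107, -0.0825 and -0.0908 for DDIT4 and -0.0934, -0.12, -0.12, -0.13, -0.10 and -0.0980 for TRIB3. Such fits gave DDIT3 0.11 and 0.0825 without EPZ-5676 replicates 1 and 3, and 0.0938 and 0.0679 without control replicates 1 and 2. They gave ASNS 0.43 without EPZ-5676 replicate 3 and 0.0051, 0.15 and 0.13 without control replicates 1, 2 and 3, and CHAC1 -0.47 without EPZ-5676 replicate 3 and -0.0731 without control replicate 1. The cause of these changes was not tested. Counting error limits CHAC1 and ASNS most. No test for a single outlying sample was run within the groups of 3.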

Other observations

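The paralogues of the 10 genes were at low or moderate levels. Of the 4 tested, 1 was lower and 0 higher, where 18.7% of all tested genes were lower and 15.0% higher. SESN1, a p53-regulated sestrin, had 4.27 ± 1.23 CPM with EPZ-5676 and 6.77 ± 1.28 CPM in the controls (SD, n = 3 each; log2 fold change -0.67 ± 0.24, edgeR adjusted p = 0.0399), the opposite direction to SESN2; the call was lost after the GC and length correction (adjusted p = 0.451) and without control replicate 1 or EPZ-5676 replicate 1 or 3. TRIB1 (log2 fold change -0.06 ± 0.16) did not pass, nor did CHAC2, with 1.69 ± 0.155 and 2.88 ± 0.686 CPM (EPZ-5676 and controls). SESN3 and DDIT4L were below the filter on low counts.

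The list of the GATOR complexes and mTORC1, through which SESN2 and DDIT4 act, had 16 tested genes. Of these, 6 were higher and 3 lower (median log2 fold change 0.07), where 15.0% of all tested genes were higher and 18.7% lower. After the correction 0 were higher and 2 lower (median -0.0028), beside 5.41% and 5.57% of all tested genes. The GTPase gene RHEB, which activates mTORC1, had 83.3 ± 10.4 CPM with EPZ-5676 and 119 ± 2.36 CPM in the controls (-0.52 ± 0.11, edgeR adjusted p = 0.00127; -0.40 after the correction, adjusted p = 0.00345). The GATOR1 subunit NPRL2 (0.44 ± 0.11) and the RHEB inhibitor TSC2 (0.51 ± 0.13) rose and the GATOR2 subunit SEH1L (-0.65 ± 0.17) fell, none of them past the threshold after the correction, and SEC13 (0.05 ± 0.10) and RRAGA (-0.03 ± 0.10) did not pass. The count of higher genes was 3 without EPZ-5676 replicate 1 or 3, the count of lower genes 1 without control replicate 3, and the corrected count 1 without control replicate 3 or any EPZ-5676 replicate.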
